A study of Mus musculus with 1 sample.

Results

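The 9 genes described here make or load the MHC class I molecule: the heavy chains H2-K1, H2-D1 and H2-T23, the light chain B2m, the peptide transporter subunits Tap1 and Tap2, the loading factor Tapbp, and the immunoproteasome subunits Psmb8 and Psmb9. They were taken by symbol from the 27998 genes of the count table, and each symbol matched 1 gene. The list, and the split of germ cells by Ly6k or Esx1, were proposed after levels of these genes in this library had been seen, so every level below is a description and none was tested. The study asked which transcription factors act on spermatogonial stem cells, and 1 of its libraries was analysed here: wild-type (Zscan2+/+) C57BL/6 mice at postnatal day 8. Testis cells of 3 mice were pooled in equal numbers before the library was made. Cells carrying the surface protein THY1 were enriched on magnetic beads and a small number of unselected testis cells were added back, so the number of cells in each class follows that mixture and not the testis. The library of Zscan2-KO mice was not analysed here.

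MHC class I molecules carry short peptides from inside the cell to its surface, where T cells and natural killer cells read them. The proteasome cuts proteins into peptides, with Psmb8 and Psmb9 taking the place of the constitutive subunits Psmb5 and Psmb6 where interferon acts, and the Tap1 and Tap2 transporter moves the peptides into the endoplasmic reticulum. There Tapbp (tapasin) holds an empty heavy chain next to the transporter, and heavy chains in general leave for the surface with B2m bound. H2-K1 and H2-D1 are the classical heavy chains, H2-T23 is the non-classical heavy chain Qa-1 that natural killer cells read, and germ cells of the testis are known for low surface class I.

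Of 970 barcodes with 11358045 unique molecular identifiers (UMIs, each 1 captured RNA molecule), 920 cells were kept, with 2655 to 44915 UMIs and a median of 9223. Clusters were named from marker genes as 324 germ cells and 596 somatic cells. Germ cells held 112 SSC-like (spermatogonial stem cell) cells with a median of 22293 UMIs, 79 progenitor-like cells (19446) and 133 differentiating-like cells (10878). Hba-a1 and Hbb-bs, which are haemoglobin genes, led the progenitor-like cluster, where 1 cell held 3604 of the 3632 Hba-a1 UMIs. In that cluster 7 progenitor markers were each found in at least 10% of cells, and 1 of them, Upp1, was among the 10 leading genes. Finding a marker does not show that it was higher there than in other germ classes. The differentiating-like class had a cluster of 101 cells (8530 UMIs) and a cluster of 32 cells led by Prss50, Ly6k and Esx1 (12208 UMIs). Of the 101 cells 35 had fewer than 5000 UMIs, the lowest 2655. At a clustering resolution of 1.2, 53 germ cells with a median of 4079 UMIs formed a cluster left unnamed for low depth. Whether the 101 cells belong to a single germ cell stage was not tested. H2-K1 was among the 10 leading genes of that 32-cell cluster, but it was made of the same 32 cells when the members and the other listed genes were kept out of the clustering. Its cells held 999.6 Stra8 and 1137 Dazl UMIs for each 1000000 UMIs of their class (CPM), markers of differentiating spermatogonia and of germ cells. Somatic cells held 255 Sertoli-like, 186 stromal-like, 94 peritubular myoid-like and 35 macrophage-like cells and 26 cells of an unnamed cluster led by Xcl1 and Rgs5, a lymphocyte chemokine and a pericyte gene. In that unnamed cluster 12 cells had at least 2 UMIs of T cell markers and none of Rgs5, while 10 of the other 14 had Rgs5. The mice were pooled, so no spread between animals was available, and 95% intervals are exact Poisson or binomial intervals that cover counting error only. Fewer transcripts per cell and a larger total of other transcripts cannot be told apart in CPM.

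In the annotation of GRCm38, the build of the counts (mm10), 8 of the 9 genes lay on chromosome 17 within 2116957 bp, and B2m lay at chr2:122147686-122153083. H2-K1 lay at chr17:33996017-34000347 on the minus strand and H2-D1 at chr17:35262730-35267499 on the plus strand. Psmb9 (chr17:34181987-34187764, minus strand) and Tap1 (chr17:34187553-34197225, plus strand) overlapped at their 5′ ends, with starts 211 bp apart. Psmb8 (chr17:34197721-34201454) lay 495 bp past the end of Tap1, and Tap2 (chr17:34203527-34216321) a further 2072 bp along. Tapbp (chr17:33915899-33929292) shared exonic bases with Zbtb22 on the same strand. H2-T23 lay at chr17:36029773-36032855 on the minus strand, and 85 of the 426 stretches of 75 bases at the 3′ end of its transcript also occurred in transcripts of other genes, H2-T-ps among them. None did for the other 8 members.

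The 250 bases before the RefSeq start (GRCm38.p6) are shown for H2-K1 and, as far as they lie outside its transcript, for B2m. These genes were chosen because H2-K1 was higher and B2m lower in all differentiating-like cells together than in SSC-like cells. For H2-D1 and H2-T23, whose windows lie wholly or partly in annotated transcripts, a stretch of 30 bases is shown. Capitals mark matches to the NF-kB consensus, to the core of the interferon-stimulated response element or to the shorter GAANNGAAA, on either strand. They run 5′ to 3′ on each gene's own strand.
H2-K1, chr17:34000348-34000597, minus strand: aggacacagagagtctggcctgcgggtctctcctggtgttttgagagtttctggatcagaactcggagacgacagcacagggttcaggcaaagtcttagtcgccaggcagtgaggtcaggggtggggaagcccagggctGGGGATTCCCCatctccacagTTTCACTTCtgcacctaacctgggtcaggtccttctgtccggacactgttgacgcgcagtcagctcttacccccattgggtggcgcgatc
B2m, chr2:122147437-122147685, plus strand: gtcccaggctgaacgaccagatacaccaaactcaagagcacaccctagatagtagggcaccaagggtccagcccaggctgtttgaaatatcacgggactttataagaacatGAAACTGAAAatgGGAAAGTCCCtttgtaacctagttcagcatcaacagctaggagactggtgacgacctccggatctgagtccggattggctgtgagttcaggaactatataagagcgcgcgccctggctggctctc
H2-K1 stretch, chr17:34000429-34000458, minus strand: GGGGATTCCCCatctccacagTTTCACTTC
H2-D1 stretch, chr17:35262923-35262952, plus strand: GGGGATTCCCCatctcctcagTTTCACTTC
H2-T23 stretch, chr17:36032806-36032835, minus strand: atcctactgcTTTCTCTTTCataaagacac

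The H2-K1 and H2-D1 stretches differed at 1 of 30 bases, A18T, counted from 1 at the 5′ end with the H2-K1 base first. Of the 8 members with a table entry, H2-K1, H2-D1 and B2m held the NF-kB consensus, which 7.01% of 27025 promoter windows held. B2m and H2-T23 held the response element core (3.04% of windows). H2-K1 and H2-D1 held GAANNGAAA (6.34%), which was added to the search after the windows had been read. None held the cAMP response element TGACGTCA (1.62%). A match is a run of letters and not evidence of binding.

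Of the 9 genes, 8 were at least 2-fold lower in germ than in somatic cells and 1, H2-T23, was at least 2-fold higher. Over all 12989 genes with at least 20 UMIs in both groups together, 28.7% were lower and 25.3% higher by that rule, and the median log2 ratio was 0.04 against -3.73 for the 9 genes. B2m stood at 45.9 CPM (interval 40.4 to 51.9) in germ cells and 611 CPM (590.2 to 632) in somatic cells, 13.3-fold lower in germ cells. The somatic level, however, came in large part from few cells. The 35 macrophage-like cells and the 26 cells led by Xcl1 and Rgs5 held 66.6% of the somatic UMIs of B2m and 85.9% of those of H2-K1. Without those 61 cells B2m was still 5.09-fold lower in germ cells, Tapbp 3.19-fold and Tap2 11.9-fold (2 against 20 UMIs). H2-K1 then stood at 19.3 CPM in germ and 17.1 CPM in somatic cells, a log2 ratio of 0.17 (-0.26 to 0.61). H2-D1 (-0.91) and Psmb8 (-0.90) fell inside the 2-fold limit, and Psmb9 was 2.14-fold higher in germ cells, with 28 against 11 UMIs and a lower bound of 0.05 on the log2 scale. Tap1 had too few UMIs to call. So 3 of the 8 genes with enough UMIs were lower, 2 higher and 3 within 2-fold, where 26.8% of 12638 genes were lower and 26.4% higher.

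**Figure D1:**
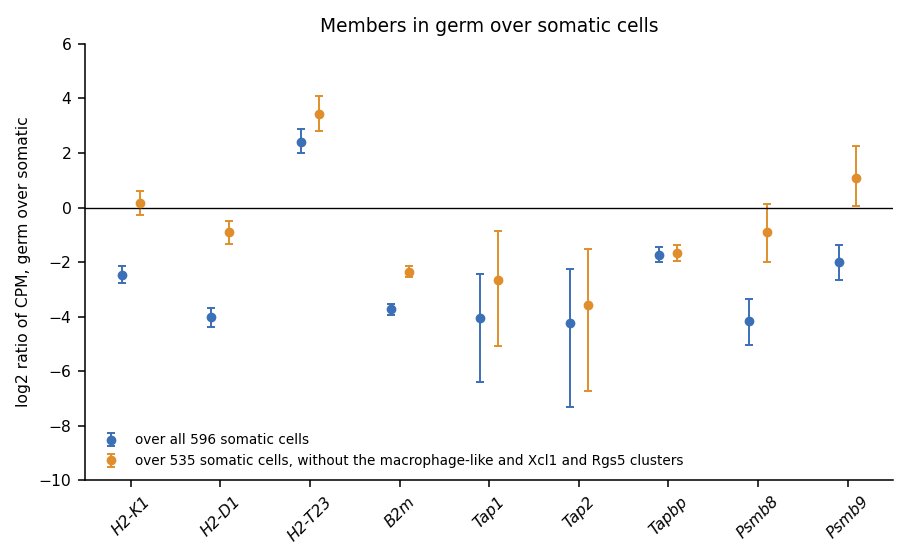
Log2 ratio of CPM in germ cells over somatic cells for each of the 9 genes, over all 596 somatic cells (blue) and over the 535 left without the macrophage-like cells and the Xcl1 and Rgs5 cluster (orange). Bars are exact 95% intervals for counting error; H2-T23 lies above 0 in both, and H2-K1 moves from -2.46 to 0.17.

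Of the heavy chains, H2-K1 was highest by class in macrophage-like cells, at 777 CPM (703 to 857), with a UMI in 33 of 35 cells. The Xcl1 and Rgs5 cluster came next at 521 CPM, but its 12 cells with T cell markers had 985 CPM (775 to 1235). Next came the 32 germ cells led by Prss50, Ly6k and Esx1 at 169.9 CPM (132 to 215), above Sertoli-like (16.99 CPM), stromal-like (18.3 CPM) and peritubular myoid-like cells (14.9 CPM). The intervals of those 3 somatic classes overlapped each other. The other 101 differentiating-like cells had 12.7 CPM (7.27 to 20.7) and SSC-like cells 7.77 CPM (4.68 to 12.1), whose intervals also overlapped. Progenitor-like cells were lowest, with 3 UMIs in 79 cells, 2.07 CPM (0.428 to 6.06). Between SSC-like and all differentiating-like cells H2-K1 was 6.58-fold higher in the latter (log2 2.72, 1.99 to 3.52), but without the 32-cell cluster the log2 ratio was 0.71 (-0.34 to 1.75).

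H2-D1, the other classical heavy chain, had the same order at the top and a flatter course in germ cells. It stood at 1756 CPM (1643 to 1874) in macrophage-like cells, with a UMI in all 35, and at 1418 CPM in the Xcl1 and Rgs5 cluster. The 12 cells of that cluster with T cell markers had 2299 CPM (1971 to 2666), above the macrophage-like level. The next levels were 36.9 CPM (20.7 to 60.9) in the 32-cell cluster and 36.6 CPM (27.9 to 47.0) in stromal-like cells, which did not differ beyond their intervals. SSC-like cells had 10.6 CPM, progenitor-like cells 12.5 CPM and the other differentiating-like cells 17.5 CPM, with overlapping intervals. H2-K1 gave 4.6 UMIs for each H2-D1 UMI (2.61 to 8.66) in the 32-cell cluster, 0.443 in macrophage-like cells, 0.731 in SSC-like cells and 0.813 in Sertoli-like cells. Of these 4 classes the 32-cell cluster was the only one with more H2-K1 than H2-D1 UMIs.

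Over all somatic cells H2-T23 was the only one of the 9 genes that was at least 2-fold higher in germ cells. It stood at 52.6 CPM (46.7 to 59.0) in germ cells, with 46.2 in SSC-like, 53.2 in progenitor-like, 67.6 in other differentiating-like and 41.9 in the 32-cell cluster. Sertoli-like cells had 3.92 CPM, stromal-like cells 6.70 CPM and peritubular myoid-like cells 4.05 CPM. Macrophage-like cells (42.6 CPM) and the Xcl1 and Rgs5 cluster (48.5 CPM) were at germ cell levels. Over somatic cells without these last classes the ratio was 10.7-fold, and after thinning each cell to 5000 UMIs 12.9% of germ cells and 2.62% of these somatic cells had a UMI. Few cells carried much of the germ cell level. Of 292 UMIs in 324 germ cells, 177 (60.6%) were in 15 cells with at least 5 each, the highest with 22, while no somatic cell had more than 3. Without these 15 cells, a division made after the values were seen, the level was 22.1 CPM in germ cells against 4.92 CPM in the 535 somatic cells, 4.50-fold higher (log2 2.17, 1.51 to 2.88). The 15 were 6 SSC-like, 5 progenitor-like and 4 other differentiating-like cells. Whether reads of other transcripts that share its 3′ bases add to these counts was not tested.

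**Figure D2:**
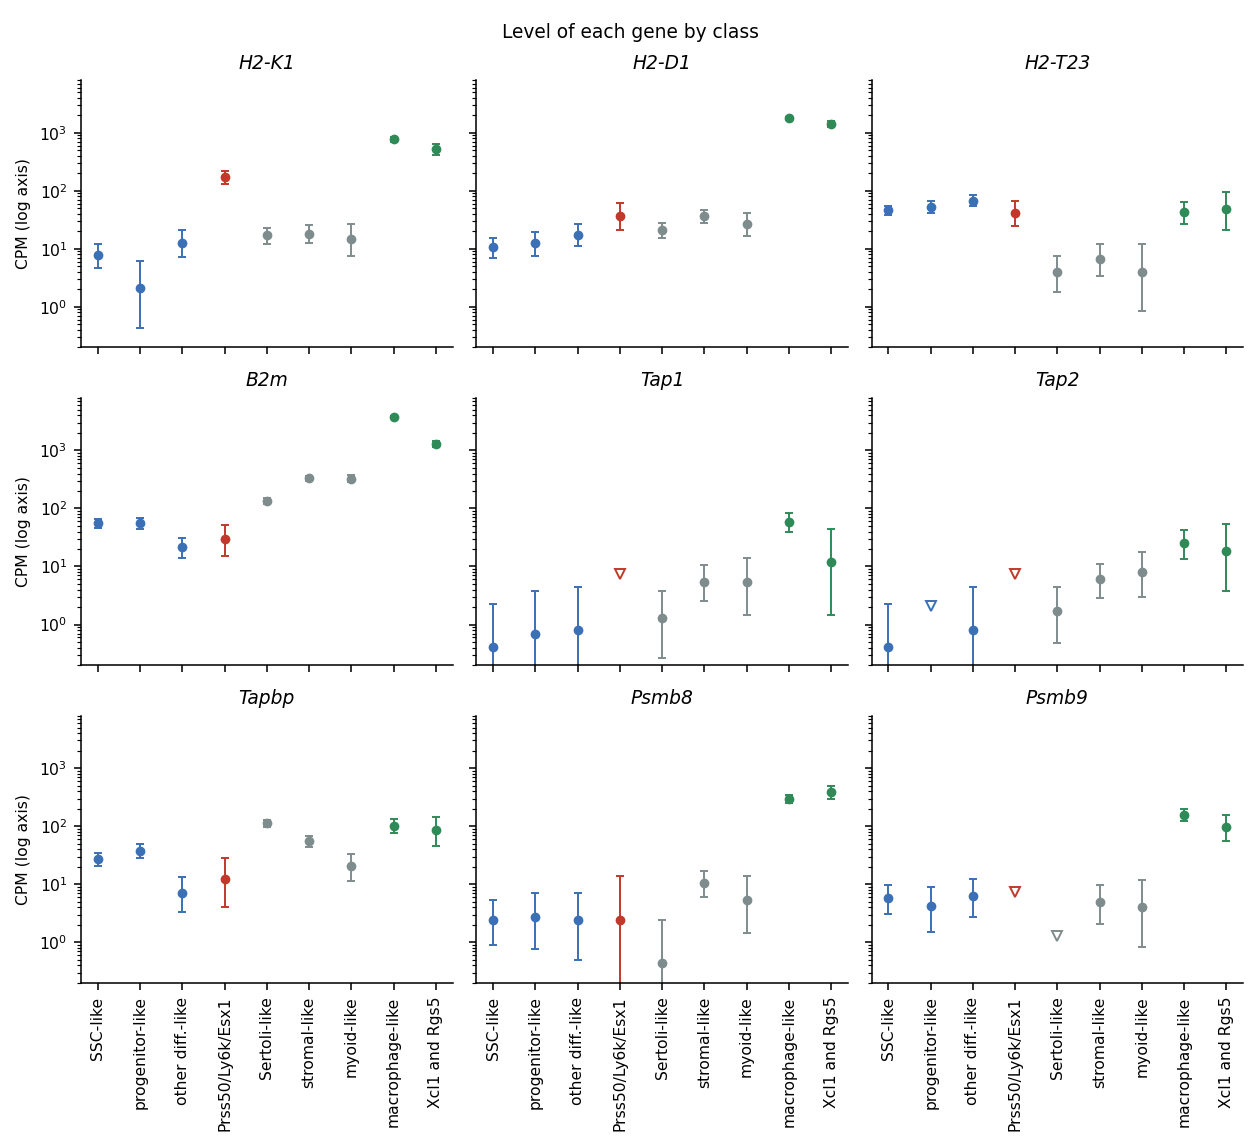
Level of each of the 9 genes in CPM (log axis) by class, with germ classes in blue, the Prss50, Ly6k and Esx1 cluster in red, Sertoli-like, stromal-like and peritubular myoid-like cells in grey, and macrophage-like cells and the Xcl1 and Rgs5 cluster in green. Bars are exact 95% Poisson intervals and open triangles mark the limit of 3 counts where a class had none; H2-K1 reaches 169.9 CPM in the red class and 777 CPM in macrophage-like cells.

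Ly6k encodes a small GPI-anchored protein of germ cells and Esx1 an X-linked homeobox factor, and 87 germ cells had a UMI of either. Those 87 cells held 79 H2-K1 UMIs, 52.8 CPM (41.8 to 65.8), and the other 237 held 28, 6.90 CPM (4.58 to 9.97), which made H2-K1 7.65-fold higher in the former (log2 2.94, 2.30 to 3.61). Of the 6 members with enough UMIs, H2-K1 and H2-D1 (24.1 against 11.1 CPM) were at least 2-fold higher. Tapbp (9.35 against 29.8 CPM) was at least 2-fold lower. By that rule 5.49% of 10519 genes were higher and 5.88% lower. The split is in large part one of stage, since 68 of the 87 cells were differentiating-like, against 65 of the 237. Tapbp was low in that whole class, at 12.3 CPM in the 32-cell cluster and 7.16 CPM in the other differentiating-like cells. B2m had 33.4 CPM in cells with Ly6k or Esx1 and 50.5 CPM in the others, within 2-fold. H2-T23 had 78.2 CPM (64.7 to 93.7) and 43.1 CPM (37.0 to 50), also within 2-fold but with intervals apart. Of its UMIs, 69 of 117 in the former were in 5 cells, and 108 of 175 in the latter were in 10.

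Outside the 32-cell cluster, H2-K1 was not higher beyond counting error in cells with a UMI of Ly6k or Esx1. Over all germ cells H2-K1 was 6.90 CPM in cells without Ly6k and Esx1 UMIs and 10.2 CPM in 39 cells with 1. It was 14.1 CPM (3.84 to 36.1) in 16 cells with 2 to 4, and 157 CPM (122 to 199.8) in 32 cells with 5 or more. The first 3 of these intervals overlapped. Of the 32 cells with 5 or more UMIs 29 belonged to that cluster, so membership and a high count could not be told apart. Outside the cluster, 55 cells with Ly6k or Esx1 had a log2 ratio of 0.41 (-0.80 to 1.495) over the 237 without. Within the other differentiating-like cells, the 36 with Ly6k or Esx1 had 10.9 CPM of H2-K1 and the 65 without had 14.6 CPM, at median depths of 18196 and 5316 UMIs. H2-T23 was 92.0 CPM (70.1 to 118.7) in the 36 and 42.2 CPM (27.6 to 61.8) in the 65. Of its 85 UMIs in these 101 cells, 46 were in 4 cells.

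**Figure D3:**
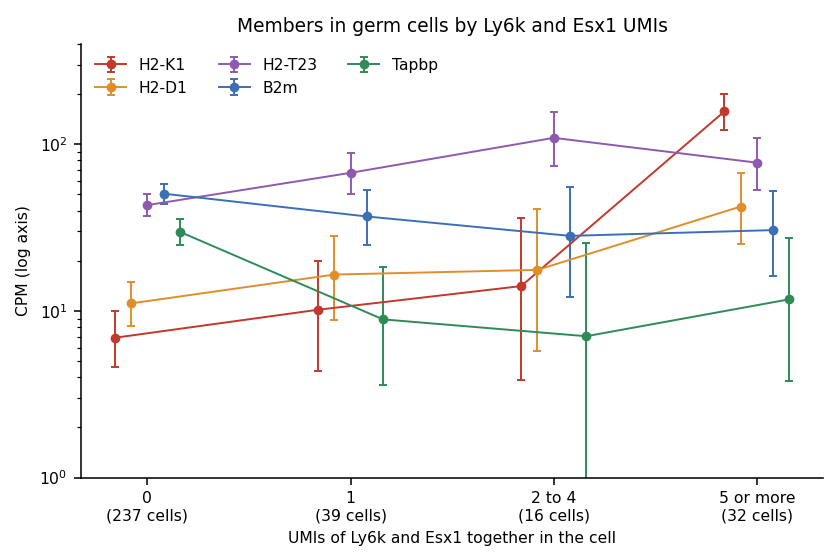
CPM (log axis) of 5 members in germ cells grouped by the summed UMIs of Ly6k and Esx1 in the cell, with exact 95% Poisson intervals as bars; the lower bar of Tapbp at 2 to 4 UMIs runs past the axis. H2-K1 stays between 6.90 and 14.1 CPM up to 4 UMIs and reaches 157 CPM at 5 or more, while B2m does not rise.

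In the 32-cell cluster H2-K1 was found in 24 cells, with 1 UMI in 10, 2 in 5, 3 in 4, 4 in 3, 8 in 1 and 17 in 1. After thinning to 5000 UMIs, 13 of 31 cells (41.9%) had a UMI, against 3 of 110 SSC-like cells (2.73%) and 23 of 235 Sertoli-like cells (9.79%). The cell with 17 H2-K1 UMIs held 4 of H2-D1, 3 of H2-T23, 0 of B2m, 45 of Stra8 and 27 of Dazl, and 1 UMI of a macrophage marker. Leaving that cell out, the log2 ratio by Ly6k or Esx1 was 2.60. Over all other germ cells, H2-K1 was 23.02-fold higher in the cluster (log2 4.53, 3.93 to 5.14) and H2-D1 2.88-fold higher, and over the other differentiating-like cells 13.4-fold and 2.11-fold. Tapbp was 2.05-fold lower than in other germ cells, with a log2 interval that held 0. Its 12.3 CPM was not below the 7.16 CPM of the other differentiating-like cells. Psmb9 had no UMI, which allows up to 7.39 CPM, against 28 UMIs and 5.44 CPM in other germ cells, a level below that limit. In all 2 of 6 genes were higher and 2 lower, where 13.3% and 22% of genes were. H2-K1 was among the genes used in the clustering, so its level in the cluster is not independent of how the cluster was made. The same 32 cells formed without the members and the other listed genes. When clusters and the Ly6k or Esx1 split came from a random 50% of the UMIs and levels from the rest, 29 of the 30 cells of the matching cluster were in the cluster above, and the log2 ratio by Ly6k or Esx1 was 1.49 (0.83 to 2.13). Germ classes then included 13 cells of the Xcl1 and Rgs5 cluster, and without them, a step chosen after seeing the data, it was 3.52 (2.56 to 4.56).

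RNA released from macrophages was gauged by taking it as the source of all UMIs outside macrophage-like cells of the macrophage marker list (C1qa, C1qb, Csf1r, Adgre1, Cd68, Lyz2). Its summed level was 17600.2 CPM in macrophage-like cells, with all 6 genes found, and between 22.2 and 45.3 CPM in the germ classes. The 32-cell cluster had 22.2 CPM (10.1 to 42.1), 9 UMIs of 4 genes, with Csf1r and Adgre1 at 0. That is 0.126% of the macrophage-like level, and the same percent of the macrophage-like H2-K1 level is 0.978 CPM, against the measured 169.9 CPM. For B2m it is 4.80 CPM against 29.5 CPM. The same gauge came closer to some low levels in other germ classes. For B2m it gave 9.82 CPM against 21.5 CPM in the other differentiating-like cells and 7.27 CPM against 55.6 CPM in SSC-like cells. For H2-K1 it gave 1.13 CPM against 2.07 CPM in progenitor-like cells and 1.48 CPM against 7.77 CPM in SSC-like cells. Of the T cell markers, 1 of 6 was found in the cluster, with 4 UMIs, and Cd3d, Cd3g, Cd2, Lck and Ptprc were at 0. No such gauge was made for cells with T cell markers. Whether released RNA added to the germ cell counts was not tested.

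**Figure D4:**
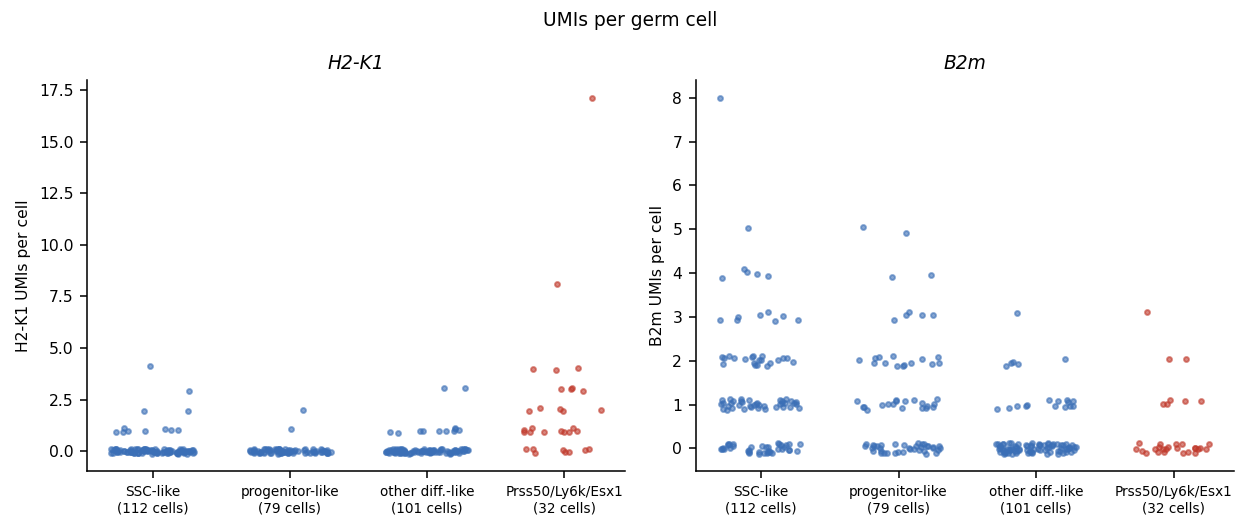
UMIs of H2-K1 (left) and B2m (right) in each of the 324 germ cells by class; each point is a cell, jittered in both directions, with the 32-cell cluster in red. H2-K1 was found in 24 of the 32 red cells and in 26 of the other 292, and B2m in 8 of the 32 and 136 of the other 292.

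B2m, with which heavy chains in general reach the surface, was lower in all differentiating-like cells together than in SSC-like cells, where H2-K1 was higher. SSC-like cells had 55.6 CPM (46.7 to 65.8) and progenitor-like cells 55.3 CPM (43.9 to 68.9). The level was 21.5 CPM (14.2 to 31.2) in the other differentiating-like cells and 29.5 CPM (15.3 to 51.6) in the 32-cell cluster, with overlapping intervals. So B2m was not lower where H2-K1 rose, in the 32-cell cluster, than in the other differentiating-like cells. In those other cells H2-K1 did not differ from SSC-like cells beyond counting error. SSC-like and progenitor-like cells did not differ beyond counting error (log2 -0.01, -0.43 to 0.40), and differentiating-like cells as a whole were 2.37-fold below SSC-like cells (log2 -1.25, -1.80 to -0.72). In that comparison H2-K1 and H2-D1 were at least 2-fold higher and B2m and Tapbp at least 2-fold lower among 6 genes with enough UMIs, where 8.05% of 9797 genes were higher and 9.23% lower. H2-T23 (log2 0.41) and Psmb9 (-0.25) were within 2-fold. Without the 32-cell cluster H2-D1 was within 2-fold as well, at 17.5 against 10.6 CPM. With the divided counts the ratio of H2-D1 turned to -1.79 and that of H2-K1 was 0.078. Where Ddx4 or Dazl UMIs defined the germ cells both turned, to -3.19 and -1.03. SSC-like cells then included 9 macrophage-like cells and 6 of the Xcl1 and Rgs5 cluster, and with the divided counts 13 of that cluster. Between progenitor-like and SSC-like cells H2-K1 was 3.75-fold lower in the former, on 3 against 19 UMIs (log2 -1.91, -4.31 to -0.14), and the 5 other genes with enough UMIs were within 2-fold. There 5.99% of 9586 genes were lower and 3.11% higher.

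Of the somatic classes Sertoli-like cells had the least B2m, 134 CPM (119.6 to 150), and macrophage-like cells the most, 3813 CPM. The level was 329.5 CPM in stromal-like cells, and peritubular myoid-like cells were alike at 328 CPM. Each of these exceeded each germ class in CPM. Counted per cell, Sertoli-like and SSC-like cells were alike. Both had a median of 1 B2m UMI, found in 61.6% and 66.1% of cells, at median depths of 8343 and 22293 UMIs. For each UMI of H2-K1 and H2-D1 together there were 3.02 B2m UMIs (2.14 to 4.33) in SSC-like cells, 3.81 in progenitor-like cells, 0.711 (0.417 to 1.195) in other differentiating-like cells and 0.143 (0.071 to 0.263) in the 32-cell cluster. The interval of the last lay below those of all other classes. Sertoli-like, stromal-like and peritubular myoid-like cells had 3.54, 6.01 and 7.84, and macrophage-like cells 1.51. These ratios compare classes and not the amounts of the genes, since UMIs were read at the 3′ end and capture can differ between genes. Of the 32 cells 24 had H2-K1, 8 had B2m and 6 had both, while in macrophage-like cells 33, 35 and 33 did.

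**Figure D5:**
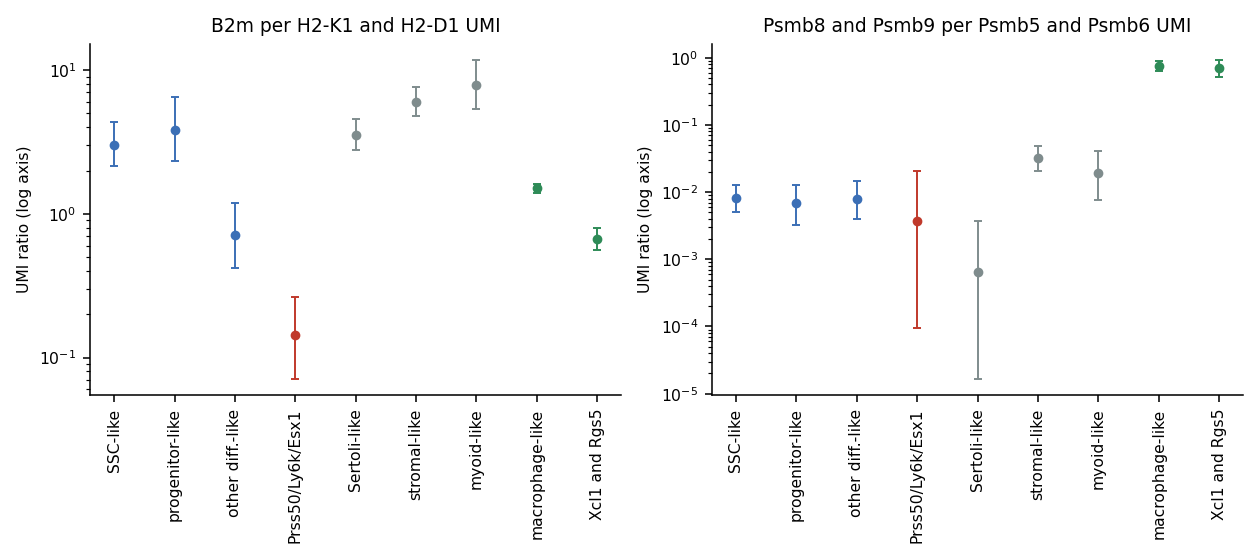
B2m UMIs for each UMI of H2-K1 and H2-D1 (left) and Psmb8 and Psmb9 UMIs for each UMI of Psmb5 and Psmb6 (right) by class, on log axes, with exact 95% intervals as bars. The left ratio is 3.02 in SSC-like cells and 0.143 in the 32-cell cluster (red), and the right ratio is 0.758 in macrophage-like cells and below 0.04 in all germ, Sertoli-like, stromal-like and peritubular myoid-like classes.

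The transporter genes were close to absent from the germ cell counts. Tap1 had 3 UMIs in 324 germ cells, 0.54 CPM (0.111 to 1.58), and Tap2 had 2, 0.36 CPM (0.0436 to 1.30). Germ cells held a median of 18216.5 UMIs per cell and somatic cells 8193.5. In the 32-cell cluster both were at 0, which allows up to 7.39 CPM, a limit above the levels of stromal-like cells. Stromal-like cells had 5.48 CPM of Tap1 and 6.09 CPM of Tap2, peritubular myoid-like cells 5.40 and 8.10 CPM, and Sertoli-like cells 1.31 and 1.74 CPM. Macrophage-like cells were highest, with 58.1 CPM of Tap1 (39.2 to 83.0) and 25.2 CPM of Tap2 (13.4 to 43.1).

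Tapbp had another pattern. Among the classes named here it was highest in Sertoli-like cells, at 112 CPM (98.7 to 126.5), and in macrophage-like cells, at 103 CPM (76.9 to 134), whose intervals overlapped. It was 2.02-fold higher in Sertoli-like than in stromal-like cells (55.4 CPM), the only one of 5 members with enough UMIs to be so, while B2m was 2.46-fold lower there. In that comparison 26.4% of 10169 genes were higher and 13.1% lower. Peritubular myoid-like cells had 20.3 CPM, 2.74-fold below stromal-like cells, and no other of the 5 members compared there passed 2-fold (10.1% of 8291 genes were lower and 6.90% higher). In germ cells SSC-like cells had 27.0 CPM of Tapbp (66 UMIs) and progenitor-like cells 38.0 CPM (55 UMIs), against 7.16 CPM (3.27 to 13.6, 9 UMIs) in the other differentiating-like cells. None of the 426 stretches at the 3′ end of the Tapbp transcript occurred in a transcript of another gene, Zbtb22 included.

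The immunoproteasome subunits were found mainly in cells of the immune classes. Psmb8 stood at 298 CPM (253 to 349) in macrophage-like cells, where 34 of 35 cells had a UMI, and at 382 CPM in the Xcl1 and Rgs5 cluster, and Psmb9 at 157 CPM and 97.0 CPM. Stromal-like cells had 10.4 CPM of Psmb8 and 4.87 CPM of Psmb9. Sertoli-like cells had 1 UMI of Psmb8 in 255 cells, and 0 of 255 had Psmb9, which allows a share of cells with a UMI of up to 1.18% and a level of up to 1.31 CPM. Germ cells had 2.52 CPM of Psmb8 (1.38 to 4.23) and 5.04 CPM of Psmb9 (3.35 to 7.29), so Psmb9 in germ cells was above the limit in Sertoli-like cells. For each UMI of the constitutive subunits Psmb5 and Psmb6 there were 0.758 UMIs of Psmb8 and Psmb9 in macrophage-like cells (0.637 to 0.901), 0.0076 in germ cells and 0.000657 in Sertoli-like cells. Psmb5 itself was at 379.5 CPM and Psmb6 at 615.5 CPM in germ cells.

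Psmb10, the remaining immunoproteasome subunit, is no member, but it did not follow Psmb8 and Psmb9. It stood at 127 CPM in germ cells and 47.8 CPM in somatic cells, and within germ cells it ran from 46.8 CPM in the 32-cell cluster to 197 CPM in progenitor-like cells. Psmb10 UMIs for each UMI of its constitutive counterpart Psmb7 were 0.566 (0.487 to 0.655) in progenitor-like cells, 0.308 in SSC-like cells, 0.114 in the 32-cell cluster and 0.862 in macrophage-like cells.

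Against all other somatic cells, macrophage-like cells were at least 2-fold higher in 8 of the 9 genes, where 12.8% of 11146 genes were, and 37.8% of genes were lower. The folds were 28.2 for Psmb9, 23.5 for H2-D1, 22.7 for H2-K1, 17 for Psmb8, 15.6 for Tap1, 14.1 for B2m, 6.66 for H2-T23 and 5.30 for Tap2. Tapbp, at 1.32-fold, was the exception (log2 0.40, -0.04 to 0.82). Of the 26 cells led by Xcl1 and Rgs5, the 12 with T cell markers, a group formed after the data were seen, had more than the other 14 of H2-K1 (985 against 124 CPM), H2-D1 (2299 against 663 CPM), Psmb8 (709.5 against 101 CPM) and B2m (1971 against 719.7 CPM). These 4 genes were the members with enough UMIs there, and 11.7% of 1201 genes were at least 2-fold higher and 21.8% lower. Both groups exceeded the 32-cell germ cluster in H2-D1 and B2m, but in H2-K1 the 14 cells (interval 61.8 to 221) did not differ from it beyond counting error.

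Of 12 other genes of antigen processing, 4 were at least 2-fold higher in germ than in somatic cells and none lower, where 25.3% and 28.7% of genes were, with a median log2 ratio of 0.71. They were Psmb10, Psmb7, the tapasin relative Tapbpl (23.6 CPM, log2 1.89) and the peptide-trimming enzyme Erap1 (log2 1.61). The chaperones Canx, Calr and Pdia3, which fold many proteins besides class I, stayed within 2-fold. In the 32-cell cluster against other germ cells, Calr (579 against 268 CPM) was higher and 5 of the 12 were lower. In that comparison 13.3% of all genes were higher and 22% lower. The 5 lower genes were Psmb10, Psmb6, the proteasome activator genes Psme1 and Psme2b, and Erap1.

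Of 18 other class I and class I-like genes in the count table, 10 had enough UMIs, of which 7 were lower in germ cells and 1 higher, where 28.7% and 25.3% of genes were. Without the macrophage-like cells and the Xcl1 and Rgs5 cluster 6 were lower and 3 higher (H2-Q2, H2-Q7 and H2-M3), where 26.8% and 26.4% of genes were. Fcgrt, the neonatal Fc receptor that also pairs with B2m, stood at 10.8 CPM in germ cells, 267 CPM in stromal-like and 548 CPM in macrophage-like cells. H2-T22 (log2 -2.81) and Hfe, an iron regulator (log2 -5.09), were lower as well. Against other germ cells, 4 of 5 were lower in the 32-cell cluster and none higher, where 22% and 13.3% of genes were, H2-T22 and Fcgrt among them. In the cluster 3 counts make 7.39 CPM, so such calls for genes of low level can rest on few UMIs. H2-T22 had fewer than 20 UMIs in differentiating-like and SSC-like cells together. No other heavy chain with enough UMIs was called higher in the cluster beside H2-K1 and H2-D1.

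Of 19 genes of interferon signalling and class I transcription, 18 had enough UMIs, of which 7 were lower and 2 higher in germ cells, where 28.7% and 25.3% of genes were. The interferon receptor chains Ifngr2 (log2 -3.71) and Ifnar2 (log2 -2.53) were lower. Irf1, an activator of class I promoters, was higher (29.7 against 10.45 CPM), and so was Rfxap, a subunit of the factor that binds the X box of MHC promoters. Nlrc5, the class I transactivator, had 4 UMIs in the library, all in macrophage-like cells. In the 32-cell cluster Irf1 had 1 of 406181 UMIs, 2.46 CPM, against 164 of 5148889 UMIs in other germ cells. Rfxap stood at 192 CPM in the cluster against 52.1 CPM in other germ cells.

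Over the 7 named classes, the genes whose log2(CPM + 1) was most like that of H2-K1 among 9066 genes were Rab1a, Clptm1l, Prcp, P2rx4 and Utp14a, with Pearson r of 0.97 to 0.992. Those most like B2m were Gusb, Zeb2os, Dram2, Dpp9 and Itm2b, with r of 0.986 to 0.997. The 7 points come from 1 library, and macrophage-like cells held the highest level of both members among them.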

How the data were processed

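The authors made 1 Chromium v2 single-cell library from pooled THY1+ enriched and added-back testis cells and deposited raw UMI counts as a gene by barcode matrix that had not been normalized. Per the study's methods and processing notes, reads were processed with Cell Ranger 2.1.0 against the mouse mm10 transcriptome; the version of the gene annotation was not given in the sources used here. The 9 genes and all gene lists were chosen with earlier results of these data known.

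Barcodes with fewer than 500 genes (10), with a mitochondrial share of 10% or more (36) or called as doublets by scrublet (4; scanpy 1.11.5, expected rate 0.01, seed 0) were left out. Counts were log-normalized to 10000 UMIs and clustered in Seurat 5.3.0 (R 4.3.3) with mean.var.plot variable genes, 14 principal components and resolution 0.5. Germ cells were then clustered again, and clusters were named from marker lists. Names were rebuilt here and can differ from those of the study.

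UMIs were summed per class and given as CPM with exact 95% intervals (SciPy 1.17.1). With 1 library, cells are not replicates, so no p-value was computed. A gene counted as higher or lower at a difference of at least 2-fold with at least 20 UMIs over both classes, and 0.5 UMIs were added for the medians of lists. Shares of cells were also taken after thinning each cell to 5000 UMIs. The procedure was tested on simulated counts drawn at random for whole groups, with no unevenness between cells. That test therefore cannot tell how the intervals hold where few cells carry much of a level. All 9 members were named. From each other list up to 6 genes past 2-fold were named, the most abundant first, with the factors Nlrc5 and Irf1 and the counterparts Psmb5 and Psmb6 whatever their values; 1 further gene named by this rule is not reported here. A few more were named beside a count, after their values had been seen. Positions came from GENCODE M21 and promoter sequence from RefSeq GRCm38.p6, where 8 of the 9 members had an entry and Tap2 did not. For likeness, the 5 genes with the highest correlation among those with at least 100 UMIs were named. Alternatives varied filters, clustering, germ cell definition, depth and the Ly6k or Esx1 split.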

Additional observations from a re-analysis of the deposited data

How the results depend on the processing

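No paired analysis was possible because the only library holds pooled mice. Of 29 alternatives, 23 were planned and 6 chosen after seeing the data. As a point value, the log2 ratio of H2-K1 by Ly6k or Esx1 (2.94) was above 0 under all 25 that gave one. It was 3.75 with at least 2 UMIs of these genes, 4.32 with both, 5.30 after thinning, 0.41 without the 32-cell cluster, 0.90 at a 5% mitochondrial limit (13 and 54 cells), 1.49 with the divided counts and 0.24 with germ cells defined by a UMI of Ddx4 or Dazl. With the divided counts, where 50% of UMIs made the classes and the rest gave the levels, 13 cells of the Xcl1 and Rgs5 cluster were among SSC-like cells, and by Ddx4 or Dazl 9 macrophage-like cells and 6 cells of that cluster were. Without cells of somatic clusters the values were 3.52 and 2.93. The counting interval of the 0.41 without the 32-cell cluster held 0, so the direction was not resolved there. For H2-K1 in differentiating-like over SSC-like cells (2.72) the divided counts gave 0.078 and the Ddx4 or Dazl definition -1.03, a reversal, or 2.99 and 2.52 without those cells, while resolution 1.2 gave 3.89 and leaving out the 32-cell cluster 0.71. With the cells of somatic clusters kept in, H2-D1 reversed in that comparison, to -1.79 with divided counts and -3.19 by Ddx4 or Dazl. A 5% limit and resolution 0.3 left no such ratio.

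B2m stayed lower in germ cells under all 19 alternatives that gave a value. Its log2 ratio (-3.73) was -4.27 at the 5% limit, -4.04 without cells with a macrophage or T cell marker UMI, -3.55 after thinning, -3.53 from means of per-cell CPM, -2.95 with divided counts, -1.63 by Ddx4 or Dazl, and -2.35 without the macrophage-like cells and the Xcl1 and Rgs5 cluster. That last setting lowered the number of genes below somatic cells from 8 to 3 and turned H2-K1 to 0.17 and Psmb9 to 1.10. Of 26 member ratios (germ over somatic, differentiating-like over SSC-like, macrophage-like over other somatic), 13 stayed within their counting interval by Ddx4 or Dazl and 22 to 26 under 9 other alternatives that gave all of them. Of all single-gene ratios under an alternative, 403 kept within the counting interval, 77 moved outside it and 4 reversed. Of the members, Tap1, Tap2, Psmb8 and Psmb9 had the fewest UMIs in germ cells, 2 to 28 of each, so their germ cell ratios are the least certain. Germ cells were the deeper cells, with a median of 18216.5 UMIs against 8193.5 in somatic cells.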

Other observations

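MHC class II genes, which present peptides taken up from outside the cell, were scarce in this library. Of 10 listed genes 3 had enough UMIs to compare germ with somatic cells, and H2-Eb1, Cd74 and H2-DMa were all lower in germ cells, where 28.7% of genes were. H2-Eb1 rested on 8 against 16 UMIs, with overlapping intervals (0.622 to 2.84 and 1.71 to 4.85 CPM). Without the macrophage-like cells and the Xcl1 and Rgs5 cluster 1 of 2, H2-Eb1, was lower, again with overlapping intervals. H2-DMa then had 4.86 CPM in germ against 2.99 CPM in somatic cells (log2 0.70, -0.28 to 1.75). H2-Ab1, too low to compare, had 11 of its 13 UMIs in germ cells, 7 of them in 4 cells of the 32-cell cluster. Cd74, the invariant chain, stood at 62.0 CPM in macrophage-like cells (32 UMIs), with 3 UMIs in all germ cells. H2-Aa, a class II chain, had no UMI in macrophage-like cells, which at their depth allows up to 5.81 CPM. H2-DMa, which loads class II molecules, was at 83.3 CPM in macrophage-like cells and 4.86 CPM (27 UMIs) in germ cells.

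Of 20 interferon-stimulated genes, 12 had enough UMIs, of which 9 were lower and 1 higher in germ cells, where 28.7% and 25.3% of genes were. In the comparison without the macrophage-like cells and the Xcl1 and Rgs5 cluster 7 of 9 were lower (26.8% of genes). Ifitm2, a membrane protein that restricts virus entry, stood at 30.2 CPM in germ cells, 227 CPM in Sertoli-like and 839 CPM in stromal-like cells, and Ifitm3 at 1.26, 1.74 and 254 CPM. Bst2 (tetherin) was highest in peritubular myoid-like cells, at 733 CPM, with 643 CPM in macrophage-like, 42.7 CPM in germ and 8.71 CPM in Sertoli-like cells. Xaf1, a regulator of cell death, was the exception, at 20.5 CPM in germ cells and 6.53 CPM in Sertoli-like cells. In the 32-cell cluster 5 of 7 were lower than in other germ cells and none was higher, where 22% and 13.3% of genes were. Against the other differentiating-like cells alone, 4 had enough UMIs, and Ifi27 was lower and Xaf1 higher. Their median log2 ratio was 0.15, against 0.01 for all genes compared. Of the 5 lower genes Oasl2, Ifi35 and Ifitm1 had too few UMIs for that comparison.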
